A study of Homo sapiens with 2 samples.

Results

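The 9 genes S100A4, S100A6, S100A9, KRT6A, KRT6B, KRT34, KRT83, DEFB4A and SLPI encode calcium-binding S100 proteins, keratins and secreted antimicrobial proteins. They were selected by name from the authors' table of genes that differ between a BRCA1-deficient ovarian cancer line and its BRCA1-expressing partner, and they are 9 of the 1806 genes in that table. Because the table lists only genes that passed the authors' comparison, these same values chose the members. The differences below are therefore a description and carry no further test. The listed genes have adjusted p-values of up to 0.0499 in the authors' deposited table, where the highest of the 9 was 0.0349, for S100A4.

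UWB1.289 is an established human line from a serous ovarian carcinoma, and its genotype label reads BRCA1 Knockout. As background, this line is known to lack functional BRCA1, a tumour suppressor of homologous recombination repair, through a mutation it carries rather than through editing. Its partner has the cell line label UWABRCA1, the title UWBBRCA and the genotype label WT, and, as background, is known as UWB1.289 with BRCA1 restored. UWB1.289 is called the deficient line and UWBBRCA the expressing line below. Neither line was treated, both grew in the same serum-containing mixture of RPMI 1640 and MEGM media, and the labels give 1 sample for each and do not name clones. Expression is given as FPKM, fragments scaled to transcript length and library size, as the authors' mean per line, and the decimals are those of a mean of 3 values. No spread can be given for any FPKM, the depth of the libraries is unknown, and the adjusted p-values below are the authors'. A difference is the log2 of FPKM + 1 in the deficient line minus that in the BRCA1-expressing line, a scale that understates the change of low genes. In a bulk sample, more cells with a transcript and more transcript per cell cannot be told apart. BRCA1 had 5.63 FPKM in UWB1.289, against 22.0 FPKM in UWBBRCA, so the label and the transcript point the same way.

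S100 proteins are small calcium sensors that change shape when they bind calcium and then dock on partner proteins, and several are also secreted as alarm signals in inflammation. Keratins pair one type I with one type II chain to build the intermediate filaments of epithelial cells, and KRT6A and KRT6B are the type II chains that epidermis adds when it is wounded or inflamed. Beta-defensins and SLPI, the secretory leukocyte protease inhibitor, protect epithelial surfaces: the first kill microbes, the second blocks neutrophil elastase and cathepsin G and has antimicrobial activity of its own. Mucosal linings of the reproductive tract make several of these proteins.

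Of the 9 genes, 8 were higher in the BRCA1-deficient line and KRT83 was lower. Among all listed genes 53.5% were higher by the sign of the log2 fold change in the authors' deposited table. On the log2 scale of FPKM + 1, 6 of the 9 were at least 2-fold higher, where 25.3% of all listed genes were, and 0 were at least 2-fold lower, where 22.5% were. KRT83, the 1 lower gene, was under 1 FPKM in both lines and could not reach 2-fold on this scale. Since the rule used this contrast, nothing is read from these shares. The median difference of the 9 genes was 1.12, against 0.20 for all listed genes. For the 926 listed genes at 1 FPKM or more in each line the median was 0.87, and for the 4 of the 9 that meet this it was 1.20. With the deficient column scaled down so that both columns have equal totals over the listed genes, or centred on the median log2 FPKM ratio of those 926 genes, 1.01, only DEFB4A and S100A9 stayed at least 2-fold higher. Centring moved the median over all listed genes by -0.21, and both rescalings come from called genes alone.

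**Figure D1:**
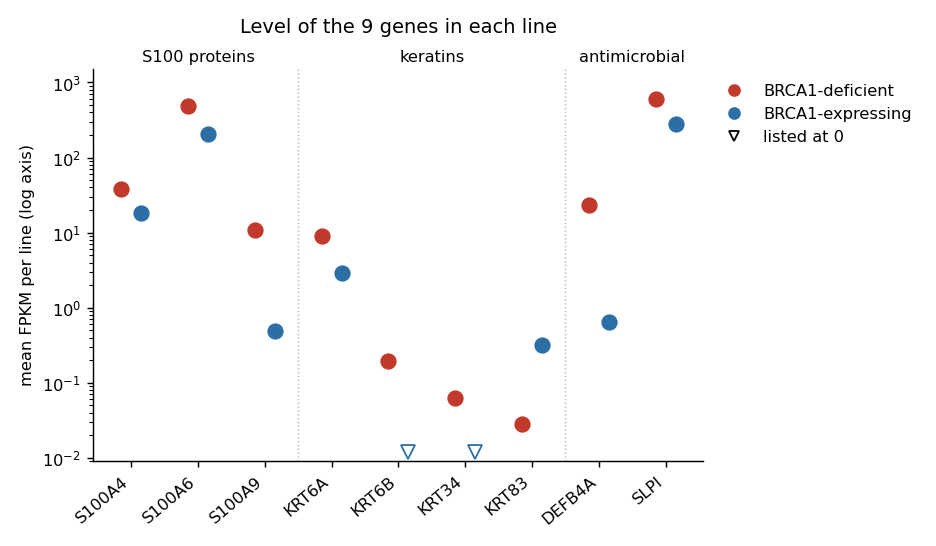
Mean FPKM of each of the 9 genes on a log axis, with the BRCA1-deficient line (red) left of the BRCA1-expressing line (blue); open triangles mark genes listed at 0 and have no height of their own. S100A6 and SLPI lie above 200 FPKM in both lines, and KRT6B, KRT34 and KRT83 stay under 1 FPKM in both.

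The levels covered a wide range. Among all listed genes SLPI held rank 4 by level in UWB1.289 and rank 5 in UWBBRCA, and S100A6 held rank 5 in UWB1.289 and rank 7 in UWBBRCA. The 9 genes together made up 5.23% of the summed FPKM of all listed genes in UWB1.289 and 3.01% in UWBBRCA. SLPI and S100A6 made up 93.1% of the summed FPKM of the 9 in the deficient line and 95.5% in the expressing line. In the deficient line the order was SLPI, S100A6, S100A4, DEFB4A, S100A9, KRT6A, KRT6B, KRT34 and KRT83. In the expressing line KRT6A stood above DEFB4A and S100A9, and KRT83 stood above KRT6B and KRT34, both listed at 0. Without the values behind the means, it cannot be said which neighbours in either order differ beyond their spread.

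The 3 S100 members were higher in the deficient line, and S100A9 differed far more than the other 2. Their FPKM summed to 542 in UWB1.289, against 222 in UWBBRCA. S100A9 (ENSG00000163220, chromosome 1, 153357854 to 153361023 in the file, plus strand, GRCh38), which pairs with S100A8 to form calprotectin, the abundant calcium- and metal-binding protein of neutrophils, had 10.9 FPKM in UWB1.289, against 0.493 FPKM in UWBBRCA. That is a ratio of 22.0, its difference of 2.99 on the log2 scale of FPKM + 1 ranked 12 among all listed genes, and the authors' deposited table gave a log2 fold change of 4.50 with an adjusted p of 1.33e-15. S100A6, calcyclin (ENSG00000197956, chromosome 1, 153534599 to 153536244, minus strand), had 493 FPKM in UWB1.289, against 203 FPKM in UWBBRCA, a ratio of 2.43. For S100A6 the log2 fold change in the authors' deposited table was 1.42, at an adjusted p of 0.0111. S100A4 (ENSG00000196154, chromosome 1, 153543613 to 153550136, minus strand), which binds non-muscle myosin and is known for its link to cell motility, had 38.0 FPKM in UWB1.289, against 18.4 FPKM in UWBBRCA, a ratio of 2.06. For S100A4 the authors' deposited table gave a log2 fold change of 1.19 and an adjusted p of 0.0349. On the log2 scale of FPKM + 1, S100A4 was at 1.0023, just past 2-fold, and after centring it was at 0.03. S100A4 overlaps S100A3 on the same strand, so strand does not separate reads in the shared stretch. The FPKM of S100A6 was 45.3 times that of S100A9 in the deficient line and 412 times in the expressing line. S100A6 stood 13 times above S100A4 in UWB1.289 and 11 times in UWBBRCA.

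These 3 genes lie in the S100 cluster on the long arm of chromosome 1. GENCODE release 29 places 13 protein-coding genes named S100A plus a number there within 274 kb, and 3 of them had a row. Names with further letters after the number were not counted. Of the 38868 features behind the authors' adjusted p-values, 4.65% had a row, and by the rank of the last listed gene at least 6.99% passed, so a gene without a row may also have passed. The counts of list genes with a row, here and below, stand beside these shares. S100A6 and S100A4 are 7.37 kb apart, and S100A9 lies 174 kb from S100A6 on the opposite strand. Of the 21 S100 family genes, 18 had no row and are not analysed here, S100A8 among them, so the 2 subunits of calprotectin cannot be compared. None of the 12 S100 partners and receptors on the list, such as AGER, TLR4 and ANXA2, had a row. The 1 other listed gene within 1 Mb of the cluster was NPR1, a natriuretic peptide receptor, at 1.56 FPKM in UWB1.289, against 4.40 FPKM in UWBBRCA, the opposite direction.

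RefSeq promoters (GRCh38.p14) matched 4 of the 9 genes, S100A4, S100A6, S100A9 and KRT34. The bases before the start of S100A9 and S100A4 are shown because these are the S100 members with the widest and the narrowest difference. Capitals mark the ETS core GGAA and the TATA box TATAAA, each on either strand. For S100A9 the 250 bases are chr1:153357604-153357853 on the plus strand. For S100A4 they are the 171 bases chr1:153545886-153546056 on the minus strand, and the 79 bases nearest the start are left out because another S100A4 transcript has an exon there.
S100A9: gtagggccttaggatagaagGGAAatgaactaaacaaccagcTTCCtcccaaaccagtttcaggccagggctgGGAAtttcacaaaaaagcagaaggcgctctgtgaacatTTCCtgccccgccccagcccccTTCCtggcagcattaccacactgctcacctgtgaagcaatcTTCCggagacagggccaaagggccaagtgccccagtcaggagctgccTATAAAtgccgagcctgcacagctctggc
S100A4: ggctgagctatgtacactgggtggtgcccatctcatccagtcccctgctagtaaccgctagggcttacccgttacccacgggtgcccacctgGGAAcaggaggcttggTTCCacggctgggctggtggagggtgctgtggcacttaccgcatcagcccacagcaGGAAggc
In the 250 bases before the start, S100A9 had 6 matches of GGAA, S100A6 had 2, S100A4 had 3 and KRT34 had 5. A match of GGAA was in 92.7% of all 35116 RefSeq promoter windows of this length, so most windows hold it. The longer ETS letters CGGAAG, which contain GGAA, were found in S100A9 alone of these 4 genes, 77 bases before the start, and in 16.5% of all windows. TATAAA lay 29 bases before the start of S100A9 and 31 bases before the starts of S100A4 and KRT34, in the unprinted stretch for S100A4. S100A6 had no TATAAA in this window, and 10.7% of all windows had one. The AP-1 letters TGANTCA were in none of the 4 windows and in 6.57% of all windows. A match in these letters is a description and does not show that a factor binds.

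Of the 4 keratins 3 were higher and 1 was lower, and their FPKM summed to 9.28 in UWB1.289, against 3.24 in UWBBRCA, nearly all of it from KRT6A. KRT6A (ENSG00000205420, chromosome 12, 52487176 to 52493257 in the file, minus strand), a stress-induced type II keratin, had 8.99 FPKM in UWB1.289, against 2.93 FPKM in UWBBRCA, a ratio of 3.07. The log2 fold change of KRT6A in the authors' deposited table was 1.71, and the adjusted p 0.0010. KRT6B (ENSG00000185479, chromosome 12, 52446651 to 52452146 in the file, minus strand), its near copy 35.0 kb away, had 0.193 FPKM in the deficient line and was listed at 0 in the expressing line. KRT6B therefore has no FPKM ratio, and its difference on the log2 scale of FPKM + 1 was 0.25. KRT34 (ENSG00000131737, chromosome 17, 41377650 to 41382403, minus strand), a type I hair keratin, had 0.0632 FPKM in the deficient line and was likewise listed at 0 in the other, a difference of 0.088. KRT83 (ENSG00000170523, chromosome 12, 52314301 to 52321398, minus strand), a type II hair keratin, was the 1 lower gene, at 0.0280 FPKM in UWB1.289, against 0.314 FPKM in UWBBRCA. The authors' deposited table gave KRT83 a log2 fold change of -3.13 with an adjusted p of 0.00669, and gave adjusted p values of 6.24e-06 for KRT6B and 0.0311 for KRT34. KRT6A was thus the 1 keratin of 4 above 1 FPKM in either line. KRT6B, KRT34 and KRT83 were under 1 FPKM in both lines, as were 27.7% of all listed genes.

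Of 55 type I and type II keratin genes, these 4 had a row and 51 were not analysed here. The total behind the shares of features given above may hold features other than mRNA, and 4 of 55 is near those shares. The keratins without a row include KRT16 and KRT17, type I chains that pair with KRT6A in stressed epidermis, and KRT7, KRT8, KRT18 and KRT19, the keratins of simple epithelia such as the ovarian surface. KRT6A, KRT6B and KRT83 lie in the type II cluster on chromosome 12, and KRT83, 166 kb from KRT6A, had the opposite direction. The other listed gene within 1 Mb of them was IGFBP6, which binds insulin-like growth factors, at 11.6 FPKM in UWB1.289, against 4.73 FPKM in UWBBRCA. Within 1 Mb of KRT34, the keratin-associated protein gene KRTAP2-3 was lower, at 0.489 FPKM in UWB1.289, against 3.02 FPKM in UWBBRCA. There the innate sensor gene DHX58 had 2.24 FPKM in UWB1.289, against 0.331 FPKM in UWBBRCA, and GHDC had 11.4 FPKM in UWB1.289, against 4.65 FPKM in UWBBRCA.

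DEFB4A, human beta-defensin 2 (ENSG00000171711, chromosome 8, 7894629 to 7896711, plus strand), is an antimicrobial peptide gene that epithelia switch on in response to microbes and inflammatory cytokines. It had 23.1 FPKM in UWB1.289, against 0.636 FPKM in UWBBRCA, a ratio of 36.4, and its difference on the log2 scale of FPKM + 1, 3.88, ranked 3 among the 1806 listed genes. The authors' deposited table gave a log2 fold change of 5.25 with an adjusted p of 2.06e-18. Its copy DEFB4B, 478 kb away, had its own row, at 1.59 FPKM in the deficient line and listed at 0 in the expressing line, with an adjusted p of 3.97e-09 in the authors' deposited table. Added together, the 2 copies had 24.7 FPKM in UWB1.289, against 0.636 FPKM in UWBBRCA, a difference of 3.97. DEFB4B held 6.45% of that sum in the deficient line.

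SLPI (ENSG00000124107, chromosome 20, 45252239 to 45254564, minus strand) was the most abundant of the 9 genes in both lines. Its 605 FPKM in the deficient line was 2.18 times its 278 FPKM in the expressing line, and the authors' deposited table gave a log2 fold change of 1.25 with an adjusted p of 0.0146. PI3, which encodes elafin, another inhibitor of neutrophil elastase with the same WAP fold, lies 75.7 kb from SLPI and had 78.0 FPKM in UWB1.289, against 26.8 FPKM in UWBBRCA. In the authors' deposited table PI3 had a log2 fold change of 1.63 with an adjusted p of 0.000232. SLPI stood 7.76 times above PI3 in the deficient line and 10.3 times in the expressing line. Further listed genes within 1 Mb of SLPI were CD40, a receptor of the TNF receptor family, at 44.0 FPKM in UWB1.289, against 7.88 FPKM in UWBBRCA, and NCOA5 at 14.1 FPKM in UWB1.289, against 5.83 FPKM in UWBBRCA. CCN5 was lower, at 0.0262 FPKM in UWB1.289, against 0.194 FPKM in UWBBRCA.

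**Figure D2:**
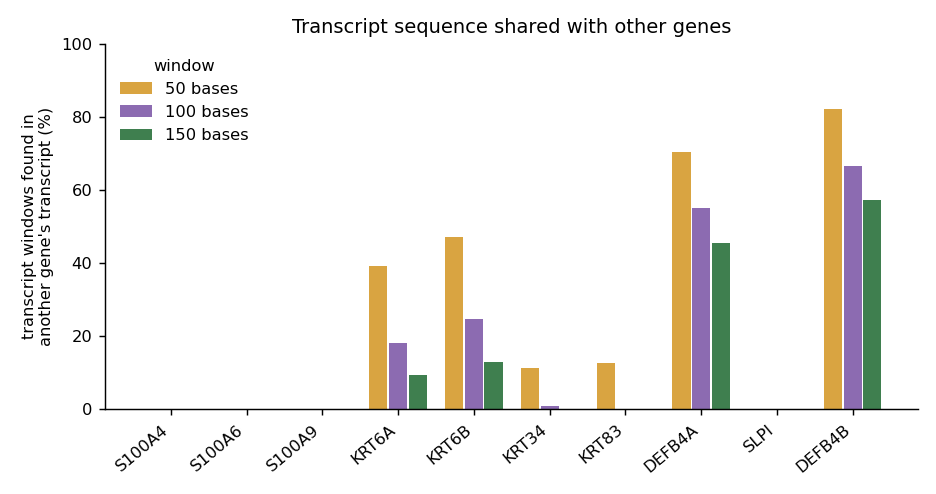
Share of all 50-, 100- and 150-base windows of each gene's longest protein-coding transcript that occur unchanged in a transcript of another gene, for the 9 genes and the DEFB4A copy DEFB4B. S100A4, S100A6, S100A9 and SLPI share none, and DEFB4A and DEFB4B share the most.

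How well a read can be given to 1 gene differed among the members. For S100A4, S100A6, S100A9 and SLPI, none of the 50-base windows of the longest protein-coding GENCODE transcript occurred in a transcript of another gene. DEFB4A shared 70.4% of its 50-base windows and 45.5% of its 150-base windows with DEFB4B. KRT6A shared 39.1% of its 50-base windows and 9.25% of its 150-base windows, and KRT6B 47.1% and 12.8%, the longer ones with each other and KRT6C. KRT34 shared 11.4% of its 50-base windows with KRT31, KRT33A and KRT33B, and KRT83 shared 12.8% with KRT81, KRT85, KRT86 and a pseudogene. For KRT34 and KRT83 none of the 150-base windows was shared. The sources used here do not say how such reads were assigned, so the split between DEFB4A and DEFB4B, and between KRT6A and KRT6B, is uncertain. KRT6A and KRT6B together had 9.19 FPKM in UWB1.289, against 2.93 FPKM in UWBBRCA, and KRT6B held 2.10% of that sum in UWB1.289.

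**Figure D3:**
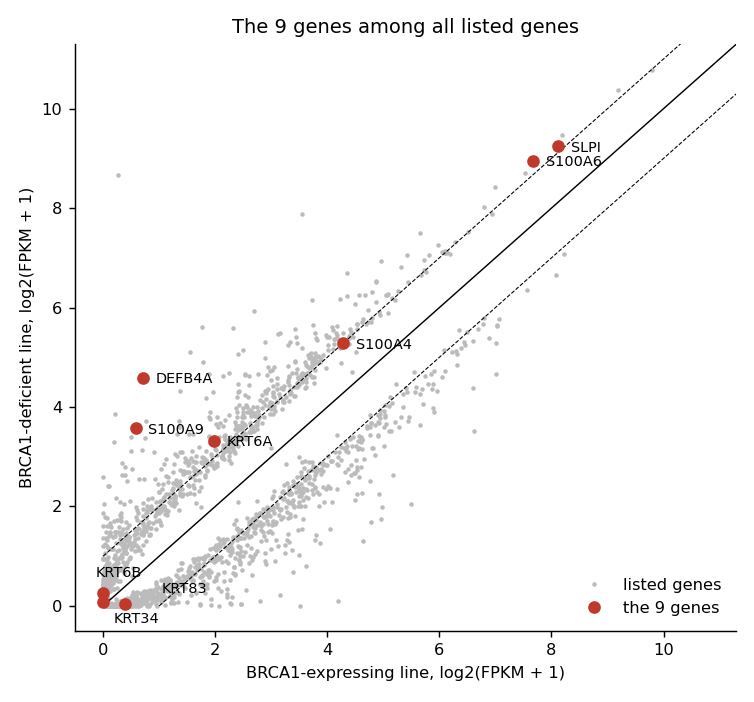
All 1806 listed genes (grey) with the 9 genes (red), by log2(FPKM + 1) in the BRCA1-deficient line (vertical) and in the BRCA1-expressing line (horizontal); the solid line marks equal levels and the dashed lines a 2-fold difference. DEFB4A and S100A9 lie far above the upper dashed line, while S100A4, S100A6, SLPI and KRT6A lie near it.

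The direction of listed genes went with base composition. Sorted by the GC content of their longest transcript into quintiles, 14.2% of listed genes were higher in the deficient line in the lowest quintile and 89.7% in the highest. The 9 genes had a median GC content of 55.6%, against 51.5% for the 1796 listed genes with a transcript. DEFB4A, SLPI and KRT34 fell in the middle quintile, where 59.3% were higher, and S100A4, S100A6, S100A9, KRT6A and KRT6B in the next, where 80.2% were higher. KRT83, the lower gene, had the highest GC content of the 9, 61.5%, and fell in the top quintile. By chromosome, 65.1% of listed genes were higher on chromosome 1, 35.0% on chromosome 12, 84.0% on chromosome 17, 80.6% on chromosome 20 and 60.4% on chromosome 8. On chromosome 12, the 1 of these where most listed genes were lower, KRT6A and KRT6B were higher and KRT83 was lower. That share covers the whole chromosome, and IGFBP6, the other listed gene within 1 Mb of these keratins, was higher. The part of base composition and of position in the differences was not tested.

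Genes that are known to act with the 9 were counted from lists, which were written with earlier results of these data known. Of 42 cytokines, receptors and regulators of the pathways that induce epithelial antimicrobial genes, 7 had a row. The 7 were higher in the deficient line, where 53.5% of all listed genes were, and the 6 at 1 FPKM or more in either line stayed higher after either rescaling. The 926 listed genes at 1 FPKM or more in each line leaned the same way, with a median difference of 0.87. The 7 list genes have opposing roles: IL1RN and IL1R2 block interleukin-1 signalling, and IL1A, IL1B, IL17C, TLR2 and AREG activate. IL1RN, the interleukin-1 receptor antagonist, had 3.52 FPKM in UWB1.289, against 0.177 FPKM in UWBBRCA. IL1R2, the decoy receptor for interleukin-1, had 15.4 FPKM in UWB1.289, against 4.87 FPKM in UWBBRCA. TLR2, a receptor for bacterial lipoproteins, had 5.27 FPKM in UWB1.289, against 1.67 FPKM in UWBBRCA. IL1A, IL1B and AREG, an EGF receptor ligand, were higher by 1.38, 1.77 and 1.19 on the log2 scale of FPKM + 1. IL17C, an epithelial cytokine known to induce beta-defensins, was under 1 FPKM in both lines, at 0.392 FPKM in UWB1.289, against 0.0408 FPKM in UWBBRCA, and was picked out with its values known. The other 35 genes of the list, such as TNF, NFKBIZ and IL36G, are not analysed here.

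The protease and protease inhibitor lists had few rows. Of 20 WAP domain and serine protease inhibitors 4 had a row: SLPI, PI3 and SERPINB1 were higher and SERPINB5 lower. SERPINB1, an intracellular inhibitor of neutrophil proteases, had 19.8 FPKM in UWB1.289, against 11.2 FPKM in UWBBRCA, and its direction turned after centring. SERPINB5, maspin, had 5.17 FPKM in UWB1.289, against 12.7 FPKM in UWBBRCA. Of 20 proteases that SLPI inhibits or that act in cornified epithelium 2 had a row, both higher. CTSL, the lysosomal cysteine protease cathepsin L, had 23.7 FPKM in UWB1.289, against 10.7 FPKM in UWBBRCA. The kallikrein KLK10, picked out with its values known, had 0.461 FPKM in the deficient line and was listed at 0 in the other. ELANE and CTSG, the neutrophil proteases that SLPI blocks, had no row. Of 38 antimicrobial and secreted innate genes DEFB4A, DEFB4B and CXCL14 had a row. CXCL14, picked out with its values known, was listed at 0 for UWB1.289 and at 0.141 FPKM for UWBBRCA.

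**Figure D4:**
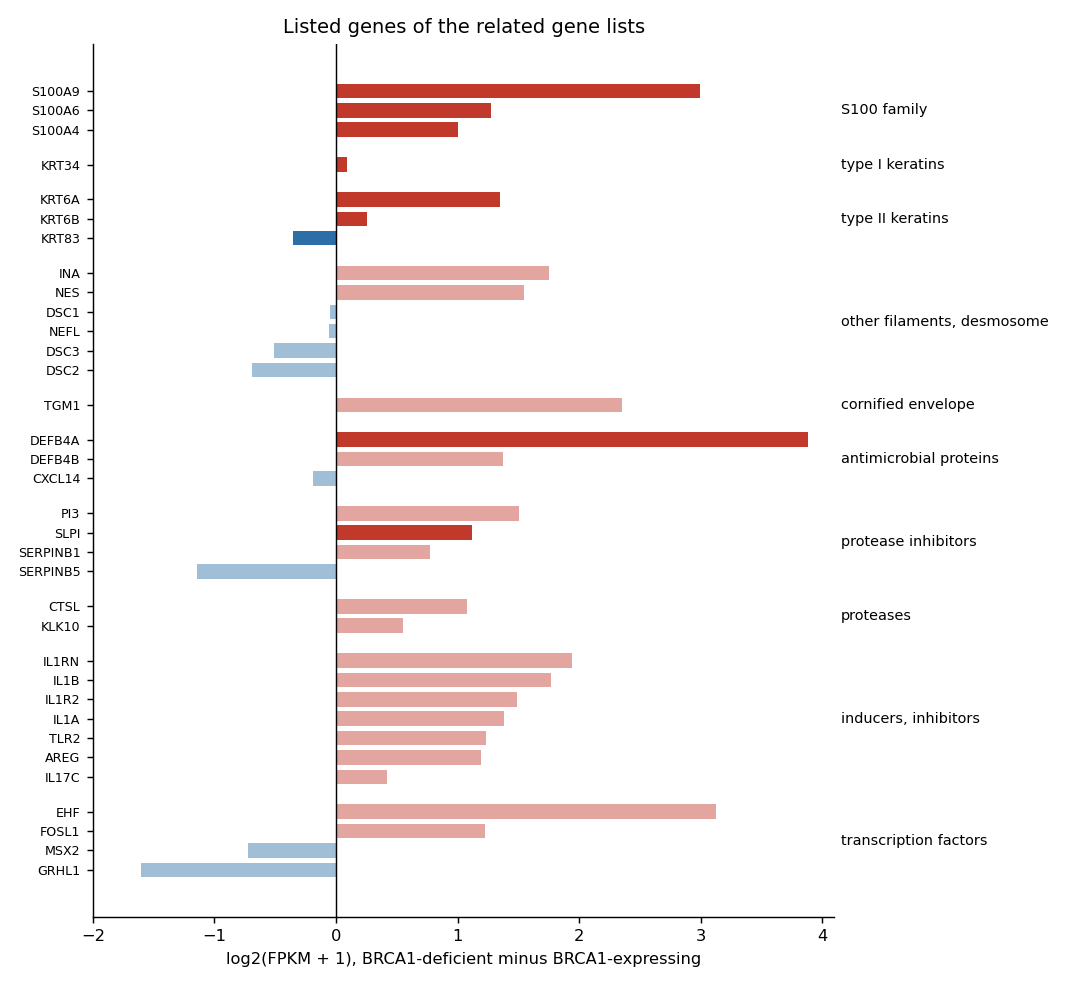
Difference in log2(FPKM + 1), BRCA1-deficient minus BRCA1-expressing, of each listed gene in 10 related gene lists, with the 9 genes in full colour and other list genes pale; red is higher and blue lower in the deficient line. The 7 genes of pathways that induce antimicrobial genes, inhibitors included, lie to the right of 0. Desmosomal cadherins (DSC1, DSC2, DSC3) and SERPINB5, all on chromosome 18, and GRHL1 lie to the left.

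Genes of other filaments, junctions and the barrier went both ways. Of 50 genes of the cornified envelope and epidermal differentiation complex 1 had a row, TGM1, the transglutaminase that crosslinks the envelope, at 12.1 FPKM in UWB1.289, against 1.57 FPKM in UWBBRCA. The authors' deposited table gave TGM1 a log2 fold change of 3.25 with an adjusted p of 5.32e-10. Of 29 genes for other intermediate filaments and desmosomes 6 had a row, 2 higher and 4 lower, and 23 are not analysed here. INA, a neuronal filament protein, had 27.1 FPKM in UWB1.289, against 7.32 FPKM in UWBBRCA. NES, nestin, had 2.64 FPKM in UWB1.289, against 0.250 FPKM in UWBBRCA. DSC2, a desmosomal cadherin, was lower, at 2.13 FPKM in UWB1.289, against 4.06 FPKM in UWBBRCA. The remaining 3 lower genes, DSC1, DSC3 and NEFL, stayed under 1 FPKM in each line and were picked out with their values known. DSC1, DSC2 and DSC3 lie between 30989365 and 31162856 on chromosome 18, and SERPINB5 is on chromosome 18 as well. The part of this shared position in their direction was not tested. Of 35 epithelial transcription factors 4 had a row, 2 higher and 2 lower, and 31 are not analysed here. EHF, an ETS factor of epithelia, had 28.8 FPKM in UWB1.289, against 2.42 FPKM in UWBBRCA, and FOSL1, an AP-1 subunit, had 6.41 FPKM in UWB1.289, against 2.17 FPKM in UWBBRCA. GRHL1, a regulator of desmosomal genes, had 2.52 FPKM in UWB1.289, against 9.67 FPKM in UWBBRCA, and MSX2 had 0.508 FPKM in UWB1.289, against 1.49 FPKM in UWBBRCA.

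Of the lists of cell type markers, that of fibroblasts had the most rows. Markers under 1 FPKM in both lines (TRIM29, PDGFRA, PDGFRB and WT1) were picked out with their values known. Of 10 keratinocyte or squamous markers 1 had a row, TRIM29, at 0.638 FPKM in UWB1.289, against 0.0238 FPKM in UWBBRCA. None of 10 myeloid or neutrophil markers had a row, so a source of S100A9 in such cells was not tested. The 5 of 10 fibroblast markers with a row summed to 28.9 FPKM in UWB1.289, against 105 FPKM in UWBBRCA, with 2 higher and 3 lower. COL1A2, a collagen chain, held most of the sum in UWBBRCA but not in UWB1.289, at 10.5 FPKM in UWB1.289, against 97.3 FPKM in UWBBRCA. THY1, the highest of the 5 in UWB1.289, went the other way, at 17.8 FPKM in UWB1.289, against 4.75 FPKM in UWBBRCA. MFAP5, a microfibril protein, had 0.515 FPKM in UWB1.289, against 2.71 FPKM in UWBBRCA. PDGFRA was at 0 in the deficient line and PDGFRB at 0 in the expressing line. The 3 of 10 serous ovarian markers with a row, MUC16, FOLR1 and WT1, summed to 9.02 FPKM in UWB1.289, against 8.11 FPKM in UWBBRCA. MUC16, a large mucin of the tumour surface, was higher, at 6.21 FPKM in UWB1.289, against 1.40 FPKM in UWBBRCA, and FOLR1, a folate receptor, was lower, at 2.80 FPKM in UWB1.289, against 6.56 FPKM in UWBBRCA. The others, PAX8 and EPCAM among them, are not analysed here, so the table cannot check the labelled origin. The part of other cell types in the differences was not tested.

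The listed genes most like each member in level were found by Euclidean distance over log2(FPKM + 1) in the 2 lines. DEFB4A lay nearest to MYL2, a myosin light chain, at a distance of 0.036, with the next gene, COL6A2, at 0.72. S100A9 lay nearest to OAF at 0.19 and IFI16 at 0.24. S100A6 lay nearest to the ribosomal protein gene RPLP1 at 0.29 and then to SLPI at 0.54, and SLPI to RPL35 at 0.24 and then to S100A6. S100A4 lay nearest to FDFT1 at 0.076 and ZNF593 at 0.090, and KRT6A to HPDL at 0.037 and MEIOB at 0.074. The nearest genes of the low keratins were CHI3L1 and LY75-CD302 for KRT6B, CNGA4 and HAO1 for KRT34, and ISL2 and GRIA4 for KRT83, all within 0.016. With 2 values per gene, this likeness says only that the levels were close.

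**Figure D5:**
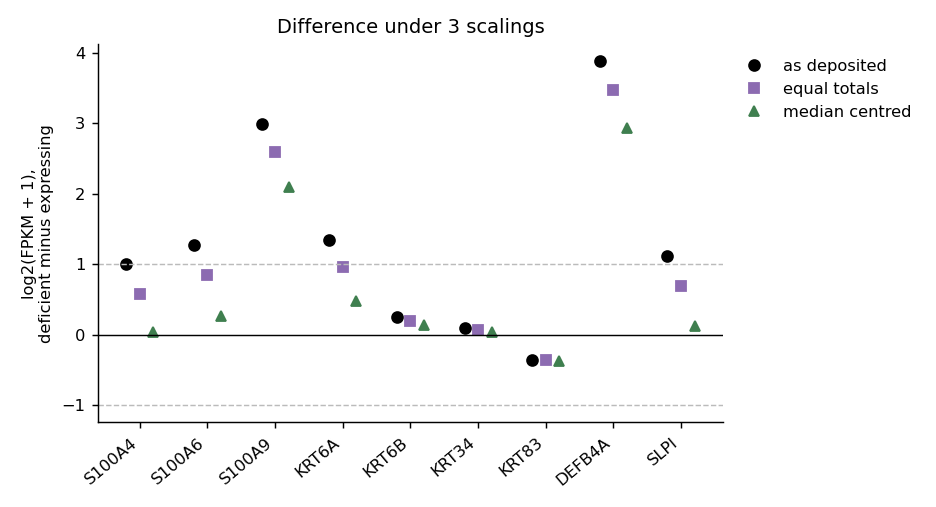
Difference in log2(FPKM + 1), BRCA1-deficient minus BRCA1-expressing, of the 9 genes with FPKM as deposited (circles), with equal column totals over the listed genes (squares) and centred on the median ratio (triangles); dashed lines mark 2-fold. DEFB4A and S100A9 stay above 2-fold under all 3 scalings, and S100A4, S100A6 and SLPI approach 0 after centring.

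The 6 genes past 2-fold kept their order after centring. Because centring scales the whole deficient column by the same factor, it cannot reorder FPKM ratios, so little is read from this. After centring DEFB4A was at 2.93 and S100A9 at 2.10, KRT6A at 0.48, S100A6 at 0.27, SLPI at 0.12 and S100A4 at 0.03 on the log2 scale. KRT83 was at -0.35 as deposited and at -0.37 after centring. For the 7 members above 0 in both lines, the log2 fold change in the authors' deposited table exceeded the log2 FPKM ratio by 0.039 for S100A9 up to 0.36 for KRT83.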

How the data were processed

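Total RNA of 2 human samples, 1 per line, was depleted of ribosomal RNA and made into strand-specific libraries, per the labels' protocols. The submitters' processing notes list HISAT2, StringTie 1.3.3b and, as build, mm9 of the mouse. The gene IDs are human, and 6 of the 9 genes have exactly the coordinates of GENCODE release 29 (GRCh38), the others differing by at most 20 bases at an end. The deposited FPKM columns are means per line by the authors: all 3612 values were whole millionths after multiplication by 3, within a tolerance of 0.02. Per the file headers, the log2 fold change, p-value and adjusted p-value come from a comparison by the authors, whose test no source used here gives. Their adjustment matches Benjamini-Hochberg over 38868 features.

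The members and gene lists were chosen with earlier results of these data known. As only means were used, no test across samples was made. Differences used a pseudocount of 1 FPKM and a 2-fold rule. Named were BRCA1, the 9 members, up to 6 genes per list at 1 FPKM or more in either line by size of difference, listed genes within 1 Mb of a member, and the 2 listed genes nearest in level to each. Other genes were picked out with their values known. Alternatives were pseudocounts of 0.1 and 0.01, a minimum FPKM of 1, 2 rescalings, a 4-fold rule, an adjusted p of 0.001 or less, leaving out genes with near-identical copies, and the authors' fold. The computation of the differences was checked on simulated pairs without noise. Only well-expressed genes were changed in them, so changes of low genes were not covered. Python 3.11.15, numpy 2.4.6, pandas 2.3.3 and matplotlib 3.10.9 were used.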

Additional observations from a re-analysis of the deposited data

How the results depend on the processing

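A pseudocount cannot turn a direction, and the rescalings, which lower the deficient column, could turn only the 6 genes that are higher and above 0 in both lines. None of these 12 values turned. The log2 shifts were -0.43 and -1.01, and the smallest log2 FPKM ratio of these genes, chosen from called genes, was 1.04, for S100A4. Neither shift was thus large enough to turn one, and nothing is read from this. The authors' fold, which comes from the same contrast, had the same direction for the 9 genes. The number of genes at least 2-fold higher, 6 of 9, was 2 with equal totals, 2 after median centring, 2 with a 4-fold rule and 3 of the 4 genes with an adjusted p of 0.001 or less. It was 7 and 8 of 9 with pseudocounts of 0.1 and 0.01, and 8 of 9 by the authors' fold. It was 6 of 6 and 4 of 4 for genes at 1 FPKM or more in either and in both lines. Without KRT6A, KRT6B and DEFB4A it was 4 of 6. The share of all listed genes was not counted under these alternatives, so nothing is read from the counts. By the authors' fold S100A4, the lowest of the 8, ranked 876 among the 1806 listed genes. The number at least 2-fold lower, 0, was 1 (KRT83) with a pseudocount of 0.1, with one of 0.01 and by the authors' fold. The median difference of 1.12 was 1.28 and 1.62 with pseudocounts of 0.1 and 0.01, 0.69 with equal totals, 0.13 after centring and 1.71 by the authors' fold, which for KRT6B and KRT34 rests on a value listed at 0. Over all listed genes the median was 0.20 as deposited, 0.13 with equal totals, -0.0092 after centring and 1.16 by the authors' fold. The median of the members was 1.31 and 1.20 for genes at 1 FPKM or more in either and in both lines. It was 2.17 for those with an adjusted p of 0.001 or less and 1.06 without KRT6A, KRT6B and DEFB4A. These last settings use fewer genes, and the cause of the other moves was not tested. Of 34 list genes that are not members, 21 were higher and 13 lower, and among the 24 that reach 1 FPKM in a line 7 were lower. SERPINB1 was at -0.17 after centring, a setting chosen for list genes after seeing the data. No paired analysis was possible because each line has 1 sample and only means were used. Leaving out replicates was not possible for the same reason, and the depth behind genes under 1 FPKM is unknown.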

Other observations

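A second keratin-associated protein gene had a row, picked out with its values known: KRTAP11-1 had 0.290 FPKM in UWB1.289 and was listed at 0 in UWBBRCA. The file gives it an interval of 183 kb on chromosome 21, from 30806210 to 30989575, whereas GENCODE release 29 gives the gene 0.912 kb, from 30880644 to 30881555, and the part of reads from outside the annotated gene was not tested.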
